A study of Mus musculus with 39 samples.

Results

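The densest end of a sucrose gradient of mouse liver, fractions 22 to 24 of gradient 2, was compared with fractions 16 to 19 of the same gradient. The rule took the mean of log2(TPM + 1) over the 3 bottom libraries and subtracted the mean over the 4 reference libraries, for each gene whose TPM averaged at least 1 over the 7 libraries. TPM is a length-normalized relative abundance of transcripts that sums to nearly the same total in each library. The 7 libraries are 7 of the 39 in the series, and 10742 of the 13634 genes in the table of gradient 2 passed the filter. The libraries were chosen by fraction number and not by a measured value.

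Livers of wild type female FVB mice were broken with ceramic beads in buffered sucrose without detergent, and nuclei were spun out before the homogenate was laid on a 10 to 50% sucrose gradient. Fractions of 0.5 ml were collected and RNA of each was depleted of ribosomal RNA and sequenced as 1 stranded library. Both groups therefore share genotype, strain, sex, homogenate and tube, and by the labels they differ in fraction number alone. Each fraction was also prepared as its own library. An age is not given in the sources used here. Fractions of 1 gradient are not biological replicates, so the differences below are sizes with the spread over neighboring fractions, and no test was made. Gradient 1 has libraries of fractions 4 to 19 and 21, so its fraction 21 is the nearest counterpart. The study's methods call the gradients independent biological replicates.

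In a sucrose gradient, free complexes stay near the top, while ribosomes with an mRNA, and membranes and organelles with the mRNAs bound to them, move further down. An mRNA with a long coding sequence can carry many ribosomes, and an mRNA for a secreted or membrane protein is usually held at the endoplasmic reticulum (ER) by the signal recognition particle, which binds a hydrophobic stretch near the N terminus of the nascent chain. Hepatocytes make most plasma proteins on ER-bound polysomes, and their ER also holds the cytochrome P450 enzymes, which are anchored in it by an N-terminal hydrophobic helix.

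Codons with U at their middle base encode hydrophobic residues only (phenylalanine, leucine, isoleucine, methionine and valine), so the start of a coding sequence can be read for such a stretch from the RNA alone. The window of 10 codons with most U-centered codons among the first 40 is shown for 5 genes, in DNA letters, 5′ to 3′ on the coding strand, with the middle T of each such codon in capitals. Alb (albumin), Apoe (a lipoprotein component) and Cyp2e1 (a cytochrome P450 enzyme) stand for the ER-targeted products. Krt8 (a keratin) and Rpl39 (a ribosomal protein) stand for cytosolic products at both ends of the comparison.

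Alb: tgggTaacctTtcTccTccTccTctTcgTc
Apoe: cTgtgggccgTgcTgtTggTcacatTgcTg
Cyp2e1: gTtcTtggcaTcaccgTtgcctTgcTtgTc
Krt8: aTgtccaTcagggTgactcagaaatcctac
Rpl39: cacaagacttTccgaaTcaagcgatTccTg

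The windows hold 8 U-centered codons in Alb, 7 in Apoe and in Cyp2e1, 3 in Krt8 and 4 in Rpl39. On GRCm38, the assembly also called mm10, they lie within single coding exons at chr5:90460941-90460970 (+), chr7:19698192-19698221 (-), chr7:140763857-140763886 (+), chr15:102004210-102004239 (-) and chrX:37084053-37084082 (-). Coding sequences were taken from GENCODE M21.

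The 7 libraries were alike in breadth. Between 10548 and 10709 genes had a TPM over 1 in each, and across the 10742 genes log2(TPM + 1) correlated at r = 0.974 to 0.987 among the reference fractions, 0.975 to 0.978 among the bottom fractions and 0.960 to 0.981 between the zones. Fraction 22 correlated more closely with fraction 19 (r = 0.981) than with fraction 24 (r = 0.975), so the zones were not 2 separate blocks. Rn45s, the precursor of ribosomal RNA that depletion leaves in part, took 2.56% to 6.47% of TPM in the reference and 3.76% to 7.41% at the bottom. Because TPM is a share, a higher value cannot be told apart from a loss of other RNAs, and the read depth is unknown.

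Most RNAs differed little between the zones. The median difference over all genes was -0.11 with quartiles of -0.28 and 0.11, and 87.8% of genes lay within 0.5 of 0. A gene was called higher or lower where the difference was at least 1 (a ratio of 2) and the 3 bottom values lay wholly outside the 4 reference values. By that rule 20 genes were higher (0.186% of those compared) and 24 were lower (0.223%). With a difference of at least 0.5 (a ratio of 1.41) and the same demand for no overlap, 445 genes were higher (4.14%) and 447 were lower (4.16%), and later counts of called genes use the threshold of 0.5 unless another is named. The SD over the fractions of a zone had a median of 0.167 at the bottom and 0.191 in the reference. The split of these calls moved with the scaling, to 628 higher and 238 lower after quantile normalization of the 7 libraries and to 619 higher and 301 lower when TPM was rescaled without the 50 most abundant genes. With the threshold at 1, the split was 35 to 17 after quantile normalization. Just inside and outside that threshold were Oat at 1.00 and Ppfibp2 at 0.9997 on the higher side, and Ccng2 at -1.02 and AW112010 at -0.99995 on the lower side.

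Among the 15 largest rises of genes with no overlap whose TPM averaged at least 10 were Snora61, Mir3113, Hspa1b, Krt8, Lmna, Nolc1, Rbmxl1, Acot2, Eno1b, Snrnp70, Hspa1a, Baiap2, Oat and Ppfibp2. Krt8, which forms the intermediate filaments of hepatocytes, had 342, 403, 472 and 532 TPM in fractions 16 to 19 and 811, 1003 and 1000.4 TPM in fractions 22 to 24. Its difference was 1.11 on the log2 scale, against SDs of 0.18 and 0.28 over the bottom and reference fractions. Lmna, which encodes the nuclear lamins A and C, had 75.8, 86.7, 102 and 113 TPM and then 186, 195 and 226 TPM, a difference of 1.10. Both genes had their lowest value in fraction 16. Nolc1, a nucleolar phosphoprotein, stood at 11.6, 14.8, 18.3 and 22.2 and 32.5, 36.9 and 38 TPM (difference 1.09). The lack of overlap between the zones was a condition for choosing all 3 genes. The 4 reference values themselves were in ascending order in each, which was not demanded.

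Other genes among these rises had varied functions. As whole lists, cytosolic chaperones (median -0.099) and hnRNP and SR proteins (-0.095) stayed near the median of all genes. Hspa1b, an inducible cytosolic chaperone of the HSP70 family, had 58.1, 71.1, 85.6 and 83.3 TPM in the reference and 126, 171 and 200.1 TPM at the bottom, and its near-identical copy Hspa1a had 33.5, 37.8, 37.5 and 46.4 and 66.6, 84.3 and 90.9 TPM. Reads of such copies can be split arbitrarily by pseudo-alignment, so the pair is best read together. The same holds for Eno1b (difference 1.05) and Eno1 (0.99), copies of the glycolytic enzyme enolase, for Rbmxl1 (1.08), which has a close relative on the X chromosome, and for the acyl-CoA thioesterase Acot2 (1.05). Snrnp70, a core protein of the U1 spliceosomal particle, had 62.6, 75.2, 84.9 and 93.6 TPM and then 141, 174 and 173 TPM. Oat, the mitochondrial ornithine aminotransferase, had 927, 1138, 1289.8 and 1411 TPM and then 2129, 2526 and 2435 TPM. Each of these genes was lowest in fraction 16 and above its reference range in fractions 20 and 21 as well.

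**Figure D1:**
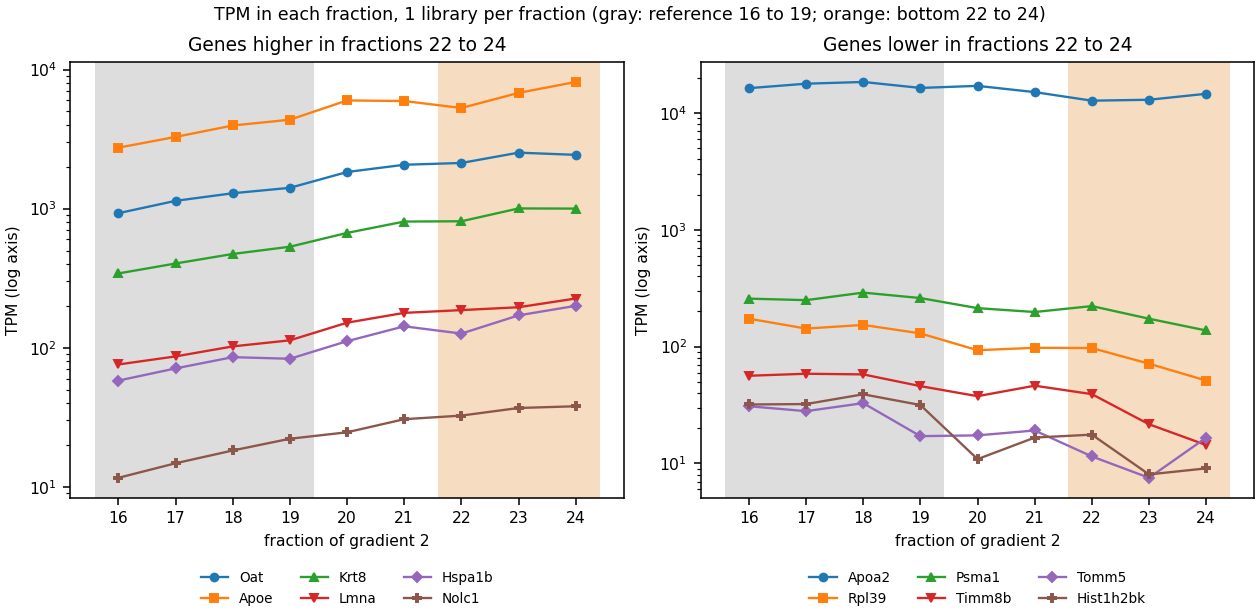
TPM (log axis) in fractions 16 to 24 of gradient 2 for 6 genes that were higher (left) and 6 that were lower (right) in fractions 22 to 24. Each point is 1 library, gray marks the reference and orange the bottom; Krt8 goes from 342 to 1000.4 TPM in a nearly steady climb, while Hist1h2bk drops between fractions 19 and 20.

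The 15 largest falls by the same rule were Snord22, Hist1h2bk, Hist1h2bl, Cox20, Timm8b, Tomm5, Ost4, Rpl39, Hist4h4, AW112010, Rps27l, Psmg4, Hist1h4i, Triap1 and Tma16. Apart from the noncoding Snord22 and AW112010, these encode short proteins, with coding sequences of 114 to 381 nt and, in Tma16, 666 nt. Rpl39, one of the shortest ribosomal proteins, had 173, 143, 153 and 129.7 TPM in the reference and 97.2, 71.4 and 51.2 TPM at the bottom, a difference of -1.06. Timm8b, a chaperone of the mitochondrial intermembrane space, had 56.3, 58.6, 57.8 and 45.9 and 39.2, 21.6 and 14.4 TPM (-1.20). Fraction 24 was the lowest of the 3 for both genes. Cox20, an assembly factor of cytochrome c oxidase, had 53.3, 44.3, 46.2 and 59.4 and 42, 15.6 and 14.5 TPM (-1.20), so fraction 22 lay just under its reference range and fractions 23 and 24 far below. Ost4, a tiny subunit of the oligosaccharyltransferase, was level at the bottom, with 101, 85.9, 74.1 and 66.4 TPM in the reference and 37.8, 37.3 and 37.4 TPM in fractions 22 to 24 (-1.09). Hist1h2bk, a histone H2B gene, had 32, 32.2, 39.1 and 31.6 and 17.7, 8.06 and 9.08 TPM (-1.53), and histone genes are near-identical copies of each other. On the opposite strand, Cox20 overlaps Hnrnpu, Timm8b overlaps Nkapd1 and Ost4 overlaps Agbl5. Rpl39 holds Snora69 within it on the same strand. Among the higher genes Krt8, Snrnp70 and Hspa1a each overlap a predicted or small RNA gene on the opposite strand, and Oat lies within the annotated span of Fgfr2. Whether strand was used in the quantification is not given in the sources used here.

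The course over the fractions is given as a description, since fractions 16 to 19 and 22 to 24 also chose the genes. In the 445 genes called higher by at least 0.5, the median distance from the reference mean was -0.21, -0.05, 0.08 and 0.18 in fractions 16 to 19, then 0.46 and 0.52 in fractions 20 and 21, and 0.51, 0.68 and 0.73 in fractions 22 to 24. The 447 lower genes followed the mirror course, with medians of 0.14, 0.05, -0.03 and -0.15 in the reference, -0.40 and -0.46 in fractions 20 and 21, and -0.50, -0.64 and -0.67 at the bottom. In fraction 20, which the rule did not use, and against the same reference fractions, 417 of the 445 lay above their reference range, as did 2144 of all 10742 genes, and 344 of the 447 lay below it, as did 3331 of all genes. TPM increased in strict order from fraction 16 to 19 in 235 of the 445 (52.8%), against 8.64% of all genes, and decreased in strict order in 121 of the 447 (27.1%), against 20.8%. The counts depended on the reference and on single libraries. Against fractions 18 and 19 alone 320 genes were higher and 344 lower by at least 0.5, and against fractions 16 and 17 alone 822 were higher and 1507 lower. Leaving out fraction 19 gave 632 and 911, and leaving out fraction 22 gave 645 and 809.

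Several groups of ER-targeted products stood on the higher side. Cytochrome P450 enzymes, the heme oxidases of drug, steroid and fatty acid metabolism in the ER membrane, had 23 of 59 higher and 0 lower by at least 0.5, with a median difference of 0.46 against -0.11 over all genes. For this and each later list, the shares over all genes were 4.14% higher and 4.16% lower. Cyp2d10 had 100.2, 126, 152 and 169 TPM in the reference and 207, 253 and 311 TPM at the bottom (difference 0.91). Cyp4a10, a fatty acid hydroxylase, had 48.2, 55.4, 64.6 and 78 and 95, 112 and 115 TPM (0.81). The most abundant member, Cyp2e1, had 1134, 1255, 1491 and 1758 and 1809.5, 1799 and 2139 TPM (0.46), with fractions 19 and 23 nearly equal. All 3 were highest in fraction 24. Members of the Cyp2d subfamily are close in sequence, and how reads were shared among them is uncertain; Cyp2d9, at a mean of 5.59 TPM, was the P450 gene with the highest difference (1.17) and was named after its value was seen.

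Lists of secreted plasma proteins had positive medians, though most of their members were not called. Plasma carrier and acute-phase proteins had 7 of 34 higher and 0 lower (median 0.37), and complement and coagulation factors had 13 of 40 higher and 0 lower (median 0.31). Serpins, mostly secreted protease inhibitors, had 7 of 30 higher and 1 lower (median 0.16). Alb, the main plasma protein, had 4212, 4678, 5351 and 6231 TPM in the reference and 7106, 6955 and 8182 TPM at the bottom (difference 0.55). Fgg, the gamma chain of fibrinogen, had 222, 251, 282 and 338 and 420.4, 447 and 458 TPM (0.71). Bottom and reference did not overlap for either. Ttr, the thyroid hormone carrier, had 2842, 3306, 3620.1 and 3474 and 2885, 3188 and 3464 TPM (-0.06), with overlap. Rbp4, the retinol carrier, differed by 0.05 and overlapped too.

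Apolipoproteins went both ways. Their median was 0.37, with 3 of 19 higher and 2 lower. Apoe had 2743, 3278, 3959 and 4357 TPM in the reference and 5289, 6790.1 and 8138 TPM at the bottom (difference 0.91), and Apoh, which binds phospholipids, differed by 0.68. Apoc1, a short exchangeable apolipoprotein and one of the most abundant RNAs, had 16569.6, 17054, 17049 and 14428 and 10099, 10506 and 11627 TPM (-0.60). Apoa2, the second apolipoprotein of high-density lipoprotein, had 16246, 17739, 18358 and 16319 and 12698, 12928 and 14545 TPM (-0.36), again below its reference range. Summed over the list, apolipoprotein RNA came to 46798 to 53166 TPM in the reference and 39243 to 48336 TPM at the bottom, with overlap, although the median gene was higher. Apob, the very long protein that forms the core of very-low-density lipoprotein, differed by 0.17 and overlapped between the zones.

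Genes that serve the ER itself were divided. Factors of ER folding and quality control had 6 of 35 higher and 1 lower (median 0.26), among them the disulfide isomerase Pdia6, which had 20.7, 20.7, 27 and 31.1 TPM in the reference and 38.3, 44.3 and 55.7 TPM at the bottom (0.87), and the lectin chaperone Calr (0.77). The translocon, the signal recognition particle and the oligosaccharyltransferase had 3 of 34 higher and 4 lower (median -0.13, or 0.03 against fractions 16 and 17 alone). Within the translocon channel itself, the long subunit Sec61a1 was higher at 0.58 and the short subunit Sec61g was lower at -0.74. Lysosomal hydrolases and vacuolar ATPase subunits had 7 of 50 higher and 2 lower (median 0.27). There the hydrolase Ctsb was higher (0.64), as was the large ATPase subunit Atp6v1a (0.68), and the small membrane subunit Atp6v0e was lower (-0.78). Coat and Golgi traffic genes had 1 of 50 higher and 1 lower (median -0.09, which came to 0.00 after quantile normalization). Golgb1, a giant golgin, was the one called higher (0.71). Solute carriers outside the mitochondrion had 10 of 138 higher and 2 lower, including the bile acid uptake carrier Slc10a1 at 0.76, and ABC transporters had 1 of 32 higher and 0 lower. Over all genes 4.14% were higher and 4.16% lower.

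Many enzymes of liver carbohydrate and amino acid metabolism were also higher. Glycolysis, gluconeogenesis and glycogen genes had 7 of 33 higher and 1 lower (median 0.35). Fbp1, the gluconeogenic fructose bisphosphatase, had 1845, 2182, 2613 and 3025 TPM in the reference and 4233, 4496 and 4274 TPM at the bottom (difference 0.87), and Pck1, which commits carbon to gluconeogenesis, had 4813, 5445, 5841 and 6157 and 8083, 9383 and 9757 TPM (0.71). Gapdh differed by 0.23. Urea cycle and amino acid genes had 11 of 47 higher and 0 lower (median 0.22), with Bhmt (0.79) and Ass1 (0.62) higher. Gnmt, a glycine methyltransferase of the same list, went from 8463, 7284, 6056 and 4699.8 TPM in the reference to 4379, 4913 and 5074 TPM at the bottom (-0.44), with overlap. The sum over the list was 74835 to 88179 TPM in the reference and 99326 to 107065 TPM at the bottom, with no overlap. Sterol and fatty acid synthesis had 5 of 35 higher and 0 lower (median 0.26), with Scd1 at 0.62 and Fasn at 0.45. Peroxisomal genes had 1 of 40 higher and 1 lower (median -0.17), where Cat (catalase) was higher at 0.52 and Amacr was lower at -0.53.

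Cytoskeletal, chaperone and RNA-binding lists had medians near that of all genes, with some large members well above it. Myosin heavy chains Myh9 (0.85) and Myh14 (0.72), the actin linker Vcl (0.57) and the dynein heavy chain Dync1h1 (0.57) were higher. Myh9 had 140.4, 150.3, 158 and 160.3 TPM in the reference and 222, 291 and 318 TPM at the bottom. Actb (-0.16) and the actin monomer binder Pfn1 (-0.10) overlapped, and Tmsb4x, an actin-binding peptide, was lower (-0.83). The actin list had 5 of 42 higher and 2 lower, with a median of 0.02 that turned to -0.09 against fractions 16 and 17 alone. Tubulins, kinesins and dynein had 5 of 41 higher and 0 lower. Constitutive cytosolic chaperones Hsp90ab1 (0.72) and Hspa8 (0.60) were higher, and the chaperone list had 5 of 34 higher and 1 lower. Among hnRNP and SR proteins, Hnrnph1 (0.91), Hnrnph2 (0.96) and Hnrnpu (0.62) were among 4 of 30 that were higher, and 2 were lower. Nuclear pore genes had 3 of 47 higher and 0 lower by at least 0.5, with Tpr, a long nuclear basket protein, at 0.76. Their median was -0.18, though, and at any size 12 lay below their reference range and 5 above. Over all genes 14.1% lay below and 10.2% above. Translation factors had 1 of 55 higher and 2 lower (median -0.27), the scaffold subunit Eif3a at 0.81 and the helicase Eif4a1 at -0.53.

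The lower side held many small subunits of large complexes. No member of the ribosomal, respiratory, proteasome or histone lists was called higher. Of 83 cytosolic ribosomal protein genes 12 were lower by at least 0.5 and 31 lay below their reference range at any size (14.1% of all genes did), with a median of -0.39. Rpl10, a protein of the large subunit, had 1342, 1195, 1054 and 899 TPM in the reference and 799, 795 and 818 TPM at the bottom (-0.47). Summed ribosomal protein RNA was 18964 to 28826 TPM in the reference and 17676 to 18693 TPM at the bottom. Much of this was in place before the bottom zone, since the list's medians were 0.28, 0.14, -0.08 and -0.33 in fractions 16 to 19 and -0.43, -0.39 and -0.34 in fractions 22 to 24. Mitochondrial ribosomal proteins had 0 of 78 higher and 13 lower (median -0.31), with Mrps21 (-0.75) and Mrpl33 (-0.72) among them.

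Respiratory chain RNAs had similar medians. Complex I, the NADH dehydrogenase, had 0 of 45 higher and 7 lower (median -0.38), and complexes II to V had 0 of 43 higher and 11 lower (median -0.43). Ndufa4 had 1485, 1268, 1240.3 and 1232 TPM in the reference and 926, 766 and 820.0 TPM at the bottom (-0.64). Uqcrb, a small subunit of complex III, had 827, 738, 694 and 699 and 581, 446 and 362 TPM (-0.70). Among abundant long subunits Ndufv1 (0.09), Sdha (0.07) and Atp5a1 (0.12) overlapped between the zones, whereas Atp5b, the catalytic subunit of ATP synthase, had 3984, 4219, 4047 and 3515 and 2889, 3084 and 3000.4 TPM (-0.39) and lay below its reference range. Mitochondrial import and chaperones had 0 of 36 higher and 5 lower (median -0.33), and the TCA cycle list, with a median of -0.37, had 2 of 23 higher and 3 lower, where Pcx (0.50) and Cs (0.55) were higher and Sdhb (-0.56), Suclg1 (-0.57) and Idh3a (-0.58) were lower. Fatty acid oxidation genes had 1 of 23 higher and 3 lower (median -0.27).

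The proteasome, which degrades ubiquitin-tagged proteins, had 0 of 48 higher and 10 lower (median -0.40). Psma1, a subunit of its core ring, had 257, 249.6, 289.6 and 260.1 TPM in the reference and 222, 173 and 137 TPM at the bottom (-0.60), and Psmb1 had 554, 537, 470.1 and 404 and 337, 322 and 309 TPM (-0.59). The regulatory subunits Psmc5 (-0.21) and Psmd13 (0.09) overlapped. Adrm1 (-0.30) and Psmd2 (-0.28) lay below their reference ranges by less than 0.5. Histones had 0 of 69 higher and 15 lower and the lowest median of the larger lists (-0.53). Conjugating enzymes of the Ugt, Gst and Sult families had 0 of 52 higher and 3 lower (5.77%, near the 4.16% of all genes), with a median of -0.30. Here fraction 22 stood apart, since Sult3a1 had 2224, 1585, 1591 and 2125 TPM in the reference and 1789, 882 and 617 TPM in fractions 22, 23 and 24. Among metallothioneins and small lipid-binding proteins, Mt2 was lower (-0.55), and Fabp1, the abundant liver fatty acid binding protein, overlapped (-0.21). Of the remaining lists, zinc finger proteins had 4 of 245 higher and 0 lower, mitochondrial SLC25 carriers 0 of 37 higher and 0 lower, aminoacyl-tRNA synthetases 1 of 23 higher and 0 lower, immediate early genes 1 of 16 higher and 0 lower and extracellular matrix genes 0 of 12 higher and 0 lower.

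**Figure D2:**
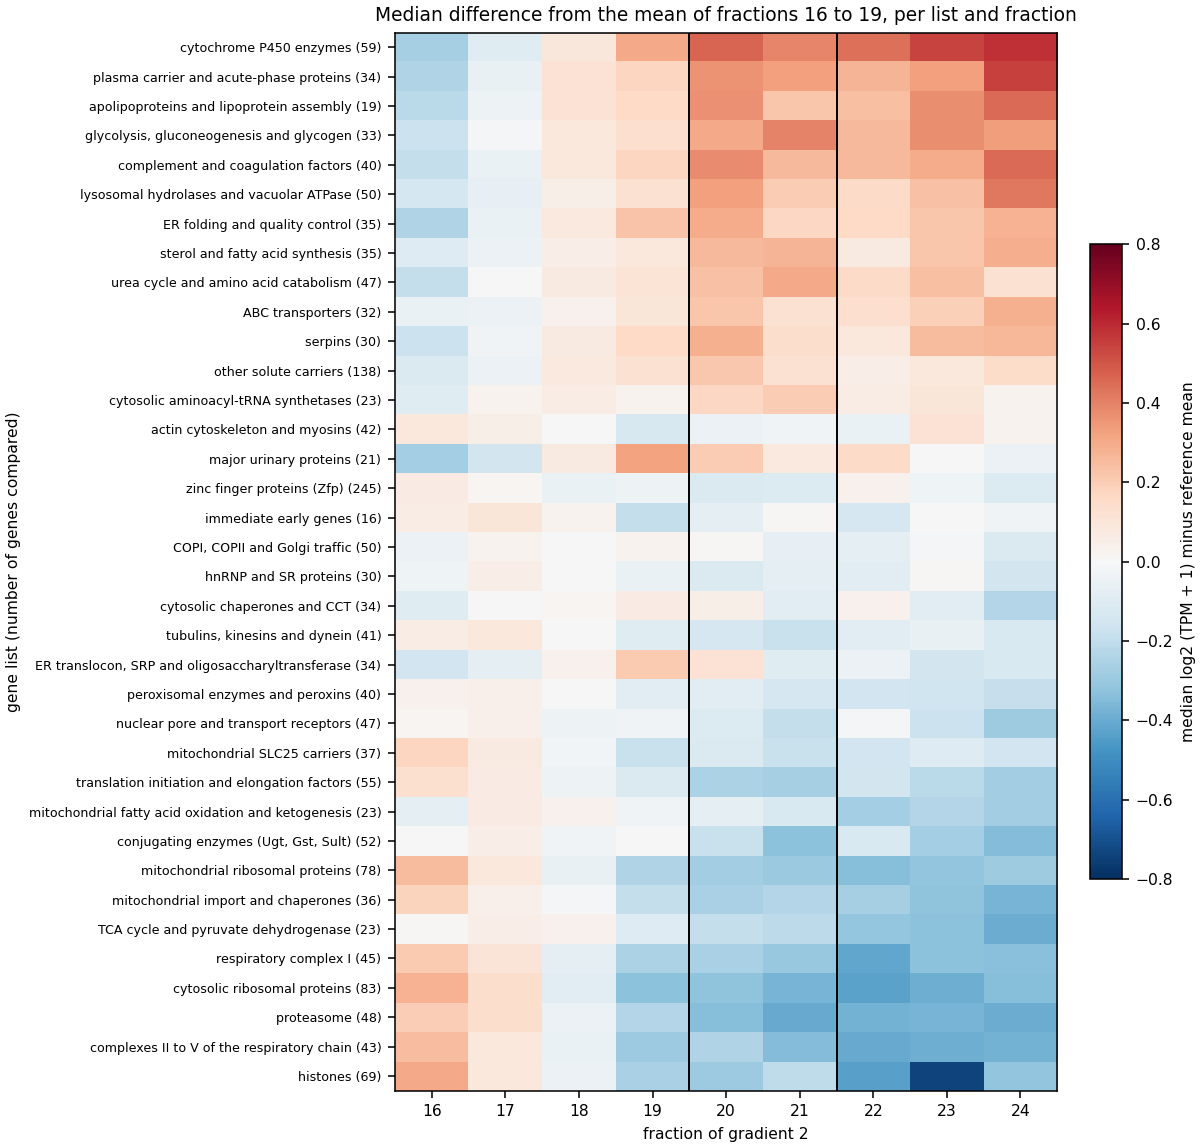
Median over the genes of each list of log2(TPM + 1) minus the reference mean, in each of fractions 16 to 24 of gradient 2, for the 36 lists of mRNAs with at least 15 genes compared. Rows are ordered by the difference between the zones and black lines mark the borders; P450 genes go from -0.26 in fraction 16 to 0.58 in fraction 24, and ribosomal proteins from 0.28 to -0.34.

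Coding length, which the rule did not use, ordered the differences. Of the 10742 genes 10492 (97.7%) matched the annotation by symbol and 10125 had a coding sequence. In the decile of genes with the shortest coding sequences (78 to 519 nt) the median difference was -0.32, with 0 genes higher and 127 lower by at least 0.5 out of 1013. In the decile with the longest (3318 to 22182 nt) it was 0.08, with 55 higher and 0 lower out of 1013. The deciles between were nearly in order, with -0.16 in the fourth and -0.03 in the sixth. The most calls on the higher side, 90 of 1012, fell in the sixth decile, between 1353 and 1581 nt. P450 genes had coding sequences of 1017 to 2037 nt, with a median of 1506 nt. The median coding length was 1668 nt in the genes called higher and 720 nt in those called lower, against 1353 nt overall.

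Length of the 3′ untranslated region ordered the genes much less. Its deciles had medians between -0.18 and -0.08. Across genes, Spearman's rho of the difference was 0.43 with coding length and 0.05 with 3′ untranslated length (n = 10125 genes of the same 7 libraries), and 0.50 and 0.07 among the 5772 that averaged at least 10 TPM. Length of the whole transcript, which holds both, gave 0.30 and 0.35. Its shortest decile (216 to 1178 nt) had a median of -0.34, with 3 genes higher and 137 lower out of 1013. The part of coding length apart from whole length was not tested. The coding length values by single fraction were 0.37, 0.38 and 0.33 in fractions 22, 23 and 24. GC content of the transcript, in contrast, changed its sign between neighbors, with rho of -0.21 in fraction 22, 0.15 in fraction 23 and 0.32 in fraction 24. The bottom libraries thus differed from each other in this respect, and the part of base composition in single genes was not tested.

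**Figure D3:**
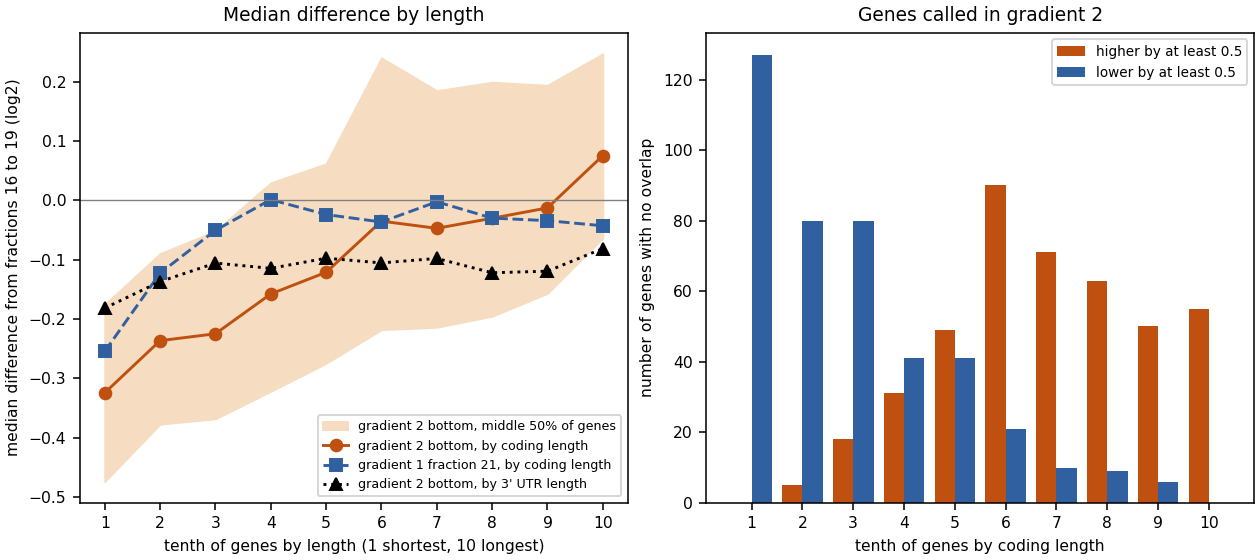
Left, median difference from fractions 16 to 19 (log2) in deciles of genes by coding length for the bottom of gradient 2 (circles, band for the middle 50% of genes) and fraction 21 of gradient 1 (squares), and by 3′ untranslated length (triangles). Right, number of genes in each decile of coding length that were higher or lower by at least 0.5; the shortest decile holds 0 higher and 127 lower, the longest 55 higher and 0 lower.

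Genes with many U-centered codons near the start had higher differences. Of the genes with a coding sequence 1184 (11.7%) had a window with 7 or more, as Alb, Apoe and Cyp2e1 do above, and 8941 had fewer, as Krt8 and Rpl39 do. The median difference was 0.06 in the first class and -0.13 in the second. By at least 0.5, 104 of the first class were higher (8.78%) and 36 lower (3.04%), against 328 (3.67%) and 379 (4.24%) of the second. In 4 equal classes of coding length, from short to long, the medians were -0.17, 0.04, 0.22 and 0.19 in the first class and -0.28, -0.18, -0.07 and 0.01 in the second, so the class with more such codons was higher in every length class, though lengths were not matched within a class. In fractions 20 to 24 the first class had medians of 0.16, 0.06, 0.02, 0.07 and 0.13, and the second -0.12, -0.15, -0.12, -0.09 and -0.13.

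Among the lists, 87.7% of P450 genes, 76.9% of complement and coagulation factors and 76.5% of plasma carriers had such a window, as did 35.7% of serpins and 29.9% of solute carriers outside the mitochondrion, against 1.22% of cytosolic ribosomal proteins and 0% of histones and of urea cycle and amino acid genes. A window near the start does not see hydrophobic stretches further inside a protein. The second class held 328 of the 432 genes with a coding sequence that were called higher, Krt8 and Lmna among them, and 8941 of all 10125. Its share called higher was thus the smaller, at 3.67% against 8.78% of the first class. The median coding length of these 328 genes was 1734 nt. Short coding sequences of the first class were on the lower side, as with Apoc1 and Apoa2, which have windows of 8 and 7. Major urinary proteins, all of which have such a window and about 543 nt of coding sequence, had a median of -0.01 that depended on the setting, with 0.06 after quantile normalization, 0.37 against fractions 16 and 17 alone, 0.20 without fraction 19 and 0.11 without fraction 24.

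**Figure D4:**
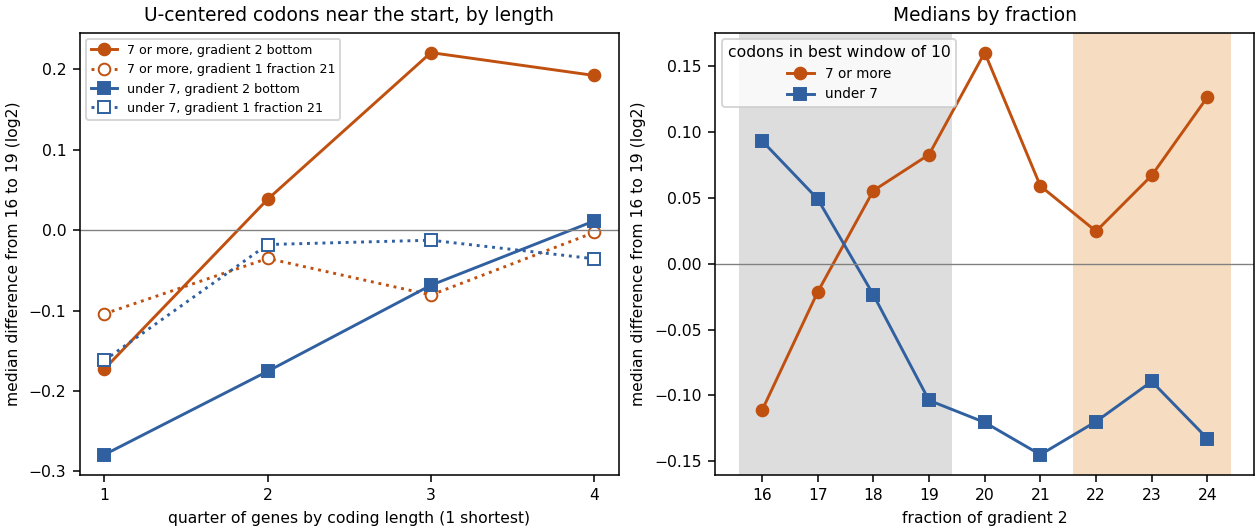
Left, median difference from fractions 16 to 19 (log2) in 4 equal classes of coding length for genes with 7 or more U-centered codons in the best window of 10 among the first 40 codons (circles) and with fewer (squares), filled for the bottom of gradient 2 and open for fraction 21 of gradient 1. Right, medians of both classes in each fraction of gradient 2; they cross between fractions 17 and 18 and stand at 0.13 and -0.13 in fraction 24.

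Gradient 1 shares no library with this comparison, and its fraction 21 was set against its own fractions 16 to 19. Of the 10720 genes also in that table, fraction 21 lay above all 4 reference fractions in 2191 (20.4%) and below all 4 in 3222 (30.1%). Of the 445 genes higher in gradient 2, 155 (34.8%) lay above and 60 (13.5%) below, and of the 447 lower genes 177 (39.6%) lay below and 54 (12.1%) above. Their median differences in gradient 1 were 0.08 and -0.15, against -0.05 over all genes. Across genes the differences of the gradients correlated weakly (Pearson's r = 0.18, n = 10720 genes), and at r = 0.25 among the 6001 that averaged at least 10 TPM.

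Single genes kept their side to different degrees. Of the 15 largest rises 13 were positive in gradient 1 and 9 lay above its reference, and of the 15 largest falls 11 were negative and 9 lay below. Of all 10720 genes, 4637 (43.3%) were positive and 6040 negative. Lmna came to 0.31 in gradient 1, Snrnp70 to 0.44 and Krt8 to 0.17. In fraction 21 of gradient 2 Lmna was at 0.92, Snrnp70 at 0.80 and Krt8 at 0.90, so the values of gradient 1 were smaller at the same fraction number too. Rpl39 (-1.49) and Cox20 (-1.01) lay below their reference there, Hist1h2bk was listed at 0 in fraction 21, so its size is not given, and Ost4 was at -0.02.

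Some gene groups took the same side in both gradients and others did not. Ribosomal proteins were low in both, with 55 of 83 below the reference in gradient 1 and a median of -0.28. Histones (-0.77), complex I (-0.23) and complexes II to V (-0.18) were low there as well. The proteasome was not, with a median of -0.02, 10 genes above and 14 below. Among the ER-targeted groups the medians were -0.08 for P450 genes (11 above and 15 below of 59), -0.07 for complement and coagulation factors, -0.05 for apolipoproteins, -0.10 for ER folding factors and -0.02 for plasma carriers, and serpins were at 0.04 (11 of 30 above and 8 below) and lysosomal genes at 0.02. Also on the higher side in both were urea cycle and amino acid genes at 0.09 (19 of 47 above and 8 below) and glycolysis genes at 0.07 (10 of 33 above and 4 below). So were aminoacyl-tRNA synthetases at 0.03 (6 of 23 above and 3 below). In gradient 2 the P450 genes already stood at a median of 0.39 in fraction 21. Coding length behaved alike at its short end, with a median of -0.25 in the shortest decile of gradient 1, but from the fourth decile on the medians there stayed between -0.04 and 0.00. The class with 7 or more U-centered codons was at -0.06 in gradient 1 and the rest at -0.05.

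**Figure D5:**
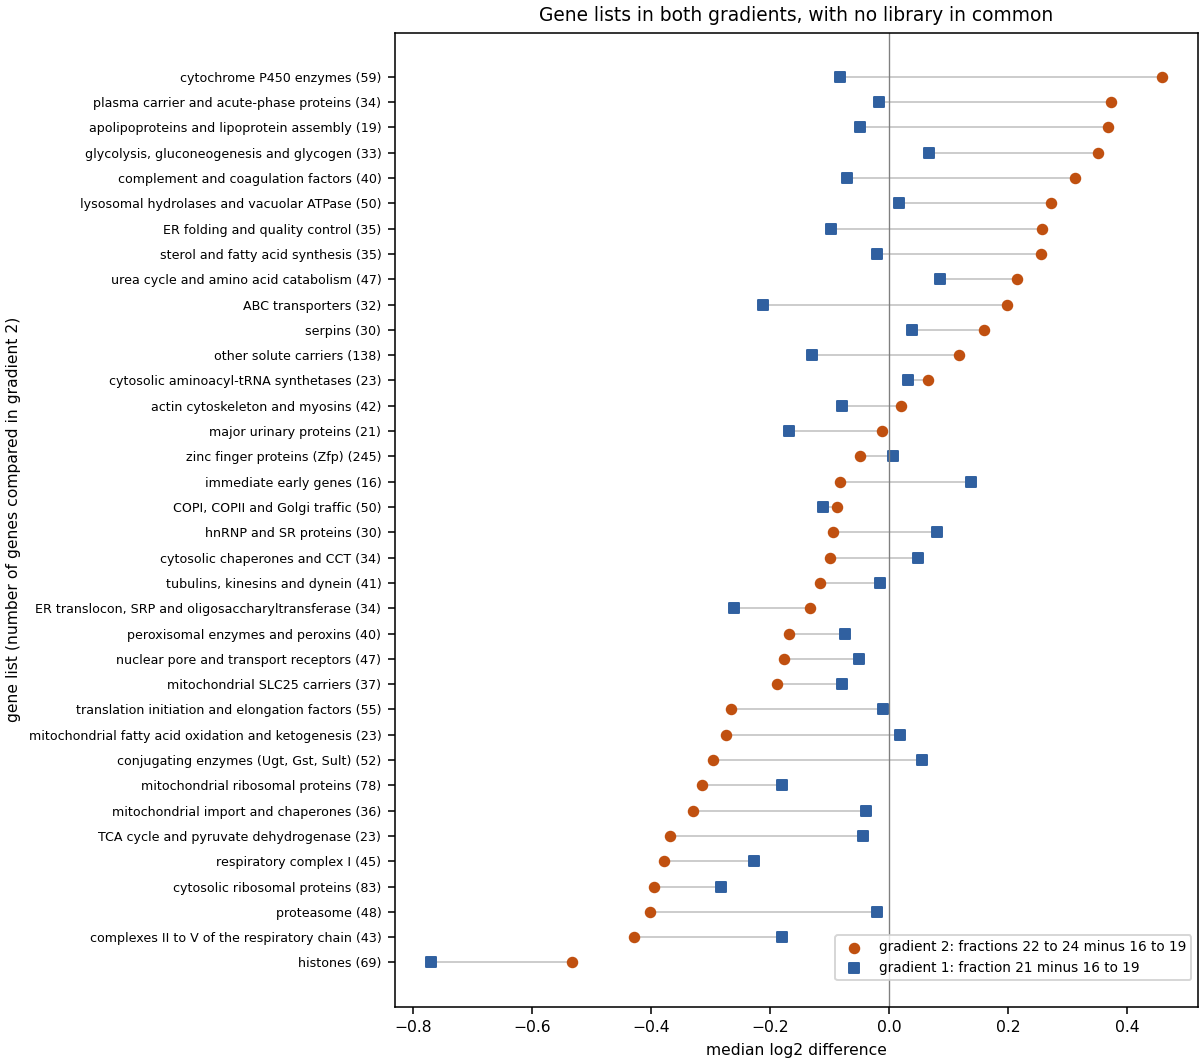
Median log2 difference of each list from fractions 16 to 19 of its own gradient, for fractions 22 to 24 of gradient 2 (circles) and fraction 21 of gradient 1 (squares), with gray lines joining the values of a list. Histones and ribosomal proteins are on the lower side in both, while P450 genes are at 0.46 in gradient 2 and -0.08 in gradient 1.

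The genes called higher at the bottom held very different levels near the top. In the light fractions 4 to 7 of gradient 1, compared with its fractions 16 to 19, 177 of the 445 (39.8%) were higher by at least 1, against 33.3% of all genes, and 167 (37.5%) were lower by at least 1, against 22.4%. The 104 genes with 7 or more U-centered codons were at a median of 1.84 in that light zone, and 103 of them were positive, but all 1182 genes of that class in the table were at 1.58 with 1075 positive. The other 328 were at -1.002 with 92 positive, against 0.00 for all genes with fewer such codons. In the light zone of gradient 2, which shares its reference with the bottom comparison, the medians of the 104 and the 328 were 0.84 and -0.68. P450 genes had light zone medians of 1.76 in gradient 1 and 0.75 in gradient 2, and glycolysis genes -1.71 and -1.63. The lists on the lower side differed there too. The medians were -2.44 and -2.05 for the proteasome and -1.30 and -1.30 for complex I, but 2.47 and 2.54 for cytosolic ribosomal proteins.

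Small noncoding RNAs gave large but unsteady values. Snora61, a small nucleolar RNA within its host Snhg12, had 11.3, 6.35, 10.2 and 37.5 TPM in the reference and 40.1, 39.7 and 40.6 TPM at the bottom, yet was listed at 0 in fraction 21. Snord22, within Snhg1, had 17.9, 17.4, 12.2 and 51.4 TPM in fractions 16 to 19 and was listed at 0 in fractions 21 to 24, so its fold is not given. Of 95 small nucleolar and Cajal body RNAs in the table, 54 were listed at 0 in all 7 libraries and 38 passed the filter. Mir3113, a microRNA locus on the X chromosome inside Huwe1 on the same strand, had 185, 187, 141 and 117 TPM in the reference and 233, 592 and 377 TPM at the bottom. Its mature product is shown for reference with the seed, bases 2 to 8, in capitals, as RefSeq gives it for GRCm38.p6 at chrX:151859606-151859625 (+).

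mmu-miR-3113-3p: uCCUGGCCcugguccugguc

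A library of total RNA reads such a locus mainly through precursors or the host transcript, so the value is not one of the mature microRNA. Of 259 microRNA loci 75 passed the filter and Mir3113 was the only one called. The largest differences of the whole table, 5.15, belonged to 6 genes with identical values in every library, Gm22109, Gm22291, Gm23284, Gm25018, Gm25212 and Gm26391, named after their values were seen. Each was at 0, 0, 0 and 54.2 TPM in the reference and 37.3, 452 and 51.5 TPM at the bottom, so the zones overlapped, with fraction 19 above fractions 22 and 24.

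Markers of liver cell types were read to check the tissue. Hepatocyte markers summed to 20460.4 to 27404 TPM in the reference and 30574 to 36109 TPM at the bottom, so these were hepatocyte-rich libraries throughout. Kupffer cell markers summed to 137 to 149 and 167 to 223 TPM, with 2 of 12 higher (C1qc at 0.73 and Csf1r at 0.56). Sinusoidal endothelial markers summed to 44.2 to 53.6 and 49.5 to 63.6 TPM, with 2 of 11 higher and 0 lower, and stellate cell markers had 0 of 8 higher and 0 lower. Cholangiocyte markers had 1 of 3 higher and 0 lower, erythroid markers 0 of 4 higher and 1 lower (Hbb-b1 at -0.86) and neutrophil markers 0 of 1 higher and 1 lower; no lymphocyte marker passed the filter. All fractions came from 1 homogenate and thus from the same cells, and the part of cell types in the list values was not tested.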

How the data were processed

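RNA of each gradient fraction of FVB mouse liver was sequenced as 1 library with a stranded, ribosomal RNA depleted kit, and the submitters' processing notes name bcl2fastq 2.16.0.10, kallisto and the mm10 build. The authors quantified transcripts with Kallisto and deposited TPM values per gene, in 1 table for each gradient; how transcripts were summed to genes and whether strand was used are not given in the sources used here. TPM holds no read counts, so depth is unknown and no counting interval was computed. All value columns matched a sample's label (0 did not). Groups were fraction numbers from the labels. From the deposited TPM values, mean log2(TPM + 1) was compared between zones with Python 3.11.15, pandas 2.3.3, NumPy 2.4.6, SciPy 1.17.1 and matplotlib 3.10.9. No test was made, and a gene was called by size with no overlap of the zones. In simulated data the code recovered known changes larger than the threshold of 1, in genes that averaged at least 10 TPM. The threshold of 0.5 and a drift over neighboring fractions were not simulated. Coding sequences came from GENCODE M21 on GRCm38 and the microRNA from RefSeq, and codons with U at the middle base took the place of a planned hydropathy score of protein residues, since no protein table was used here. Genes and lists were chosen with earlier results of these data known, and the threshold of 0.5 was applied to every setting after the data had been seen. Named genes were the 15 largest rises and falls without overlap at a mean TPM of at least 10, the 10 most abundant, up to 4 most abundant and 4 most changed per list, cell type markers and genes that the study plots. The pseudocount, the filter, the scaling, the reference fractions and single libraries were varied. Some genes that the rule names are not reported here.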

Additional observations from a re-analysis of the deposited data

Results flagged for a closer look

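In 6 cases fraction 21 lay on opposite sides of its own reference fractions 16 to 19 in the gradients, out of 47 gene lists and 50 genes screened, and none of these differences was tested. The median of the 12 extracellular matrix genes was 0.19 above the reference mean in gradient 2 and -0.05 from it in gradient 1. The median of the 30 hnRNP and SR protein genes was -0.0776 in gradient 2 and 0.0798 in gradient 1. ABC transporters (32 genes) were at 0.12 and -0.21, and solute carriers outside the mitochondrion (138 genes) at 0.12 and -0.13. For the solute carriers in gradient 2 that is level with the highest reference fraction, which was at 0.12 as well. Psma1, a core subunit of the proteasome, was at -0.41 in gradient 2 and 0.26 in gradient 1, and its regulatory subunit Psmc5 was at -0.26 and 0.13.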

How the results depend on the processing

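No paired analysis was possible because the zones are fractions of 1 gradient and the labels give no replicate numbers. Of the main counts, 20 genes higher and 24 lower by at least 1, the pseudocount of 0.1 gave 34 and 52, a filter at a mean of 10 TPM gave 14 and 9, quantile normalization 35 and 17, reference fractions 18 and 19 alone 13 and 31, reference fractions 16 and 17 alone 62 and 54, size without the demand for no overlap 70 and 69, a threshold of 0.5 gave 445 and 447, and fraction 21 alone 26 and 63. Leaving out 1 library in turn gave 15 to 35 higher and 22 to 56 lower, with the widest moves without fraction 19 (35 and 44), without fraction 22 (31 and 56) and without fraction 24 (20 and 39). By at least 0.5, chosen after seeing the data for all these settings, quantile normalization gave 238 lower genes, of which 230 were among the 447, fractions 16 and 17 alone gave 822 higher and 1507 lower, and leaving out 1 library gave 350 to 645 higher and 361 to 911 lower. Against fractions 18 and 19 alone, 232 of the 445 and 254 of the 447 genes were called again. The median difference over all genes, -0.11, was -0.152 at a mean of 10 TPM, -0.0767 with no filter, -0.0589 without the 50 most abundant genes, -0.0404 after quantile normalization, -0.0362 against fractions 18 and 19 alone, -0.18 against fractions 16 and 17 alone, and -0.151 to -0.0802 with 1 library left out. The shortest decile of coding sequences moved to -0.35 at a mean of 10 TPM and -0.24 after quantile normalization, and the longest to 0.14 after quantile normalization. Of the 47 list medians, 29 moved by more than their SD over the bottom fractions against fractions 18 and 19 alone, 27 against fractions 16 and 17 alone, 20 after quantile normalization and 16 without fraction 16. The causes of these moves were not tested. With fraction 21 alone, Snora61 was listed at 0 and lay below its reference. The depth of the libraries is unknown, and 1 gradient gives no measure of how the bottom fractions vary between animals.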
